A study of Arabidopsis thaliana with 12 samples.

Results

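The comparison described here is that of heated Arabidopsis thaliana seedlings labelled as hd2b hd2c knockouts with heated wild-type (WT) seedlings, across all genes. It rests on 6 of the 12 RNA sequencing libraries of the study, 3 labelled hd2b hd2c and 3 labelled WT, chosen by genotype and treatment label. All 6 came from whole seedlings of 6 days that were grown on agar with sucrose at 22 °C in long days and then held at 44 °C for 3 h. The other 6 libraries, 3 of each genotype, came from seedlings kept at 22 °C, and served here to estimate the spread between replicates and to ask whether a difference was also seen without heat. The labels give neither the alleles of HD2B and HD2C nor how the seedlings were pooled, and nothing in them says that replicates were grown separately, so each p-value reflects the spread between these libraries, which may be technical.

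HD2B and HD2C belong to the HD2 family, a plant-specific group of histone deacetylases that lie largely in the nucleolus. Removal of acetyl groups from histones is generally linked with lower transcription. In the heat shock response, heat stress transcription factors switch on genes of chaperones such as the HSP70, HSP90 and small heat shock proteins, which keep damaged proteins from aggregating.

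The libraries labelled hd2b hd2c held 24030931, 7737285 and 23519653 gene counts in replicates 1 to 3 after heat, against 20784014, 19124529 and 22987275 in WT. Replicate 2 of those labelled hd2b hd2c stood apart. Its ribosomal RNA features took 11.2% of the counts, against 0.734% and 0.986% in its sister libraries and 1.29% to 1.54% in WT, and its 10 most abundant genes took 34.1%, against 16.3% to 24.8% in the other 5. Its mean Spearman correlation with its own group was 0.961, against 0.973 to 0.981 in the other 5. Counts for each gene list are therefore given with it and, where they differ, without it. Levels are given in CPM, counts set to a common library total, after TMM scaling, which corrects that total by the trimmed mean of the gene ratios between libraries, and 20232 genes had enough counts to be tested. In whole seedlings, fewer cells of a type and less RNA per cell cannot be told apart. The strand setting of the counting is not given in the sources used here, so genes that overlap another gene are uncertain, among them HD2B, HSFA3, AT5G60250, GMI1, FLC, AT2G40010 and CO.

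After heat, 559 of the 20232 tested genes (2.76%) differed between the genotypes at an adjusted p under 0.05, the threshold used throughout (edgeR's quasi-likelihood test, Benjamini-Hochberg adjustment). Of these, 321 genes (1.59%) were higher in libraries labelled hd2b hd2c and 238 (1.18%) were lower. The differences were mostly small. The median absolute log2 fold change of the 559 was 0.73, and 89 higher and 57 lower genes differed at least 2-fold. All 3 libraries labelled hd2b hd2c lay above all 3 WT libraries for 308 of the higher genes, and below them for 230 of the lower genes. Over all tested genes such a separation was seen for 8.97% and 8.66%. Without replicate 2 of hd2b hd2c, 1435 of 20614 tested genes (6.96%) passed, 732 higher (3.55%) and 703 lower (3.41%), and 544 of the 559 were among them with the same direction. Leaving out any other heat library lowered the counts, to between 99 and 197 higher and between 53 and 226 lower genes. A core of 111 genes, 71 higher and 40 lower, passed in the full set and whichever heat library was left out. Scaling by library totals alone moved the median log2 fold change of all tested genes to 0.13, against 0.005 with TMM factors, and left 39 higher and 14 lower genes.

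**Figure D1:**
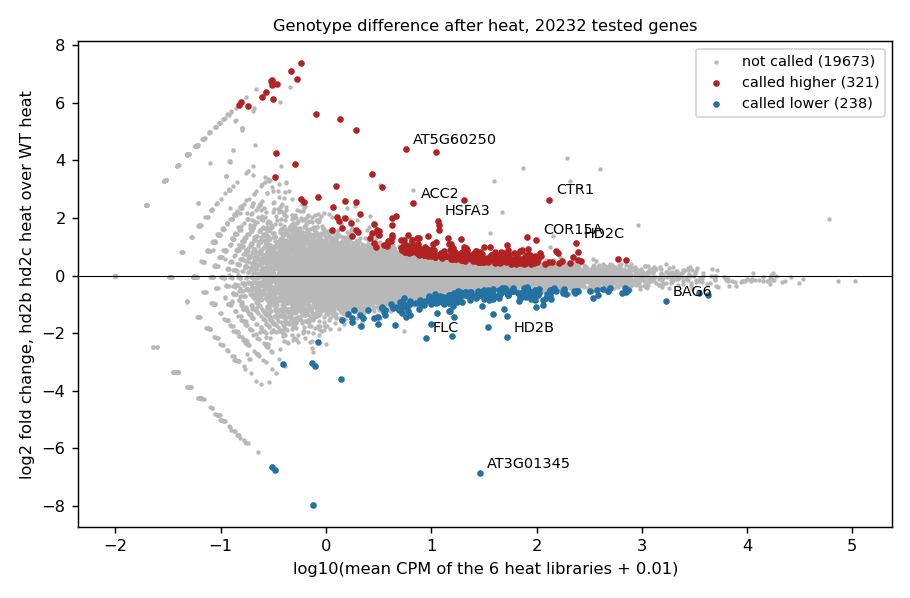
Each point is 1 of the 20232 tested genes, placed by its mean CPM in the 6 heat libraries (log10 axis, with 0.01 added) and by its log2 fold change, libraries labelled hd2b hd2c over WT. Red points are the 321 genes called higher, blue points the 238 called lower and grey points the rest. AT3G01345 lies far below the other called genes of its level, and CTR1 lies above the other called genes over 100 CPM. The outermost points at low CPM have few or no counts in 1 group, so that their fitted fold changes are no measure of size.

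The targeted genes went in opposite directions. HD2B stood at 18.2, 14.0 and 23.5 CPM in libraries labelled hd2b hd2c and 86.2, 80.7 and 90.6 CPM in WT, a log2 fold change of -2.15 ± 0.14 (standard error, SE; edgeR adjusted p = 2.48e-09). HD2C stood at 294, 354 and 326 CPM in libraries labelled hd2b hd2c, against 152, 143 and 151 CPM in WT, a log2 fold change of 1.12 ± 0.11 (edgeR adjusted p = 2.77e-06). The groups did not overlap for either gene, and the HD2C level goes against the knockout label. A gene count does not tell whether a transcript is whole, so every direction below is that of libraries labelled hd2b hd2c. The fall of HD2B was deeper after heat than at 22 °C, where its log2 fold change was -0.75, and the difference between the temperatures passed (interaction log2 -1.40, edgeR adjusted p = 0.000928). For HD2C the log2 fold change at 22 °C was 1.40, and the test of the difference gave an adjusted p of 0.659 by edgeR.

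Genes beside HD2C were higher as well. The nearest tested genes on one side of it are CTR1, which encodes the Raf-like kinase that holds ethylene signalling off, then HSFA3, a heat stress transcription factor, and then AT5G03700, annotated as a lectin protein. CTR1 was at 215, 226 and 240.1 CPM in libraries labelled hd2b hd2c and 36.1, 40.9 and 33.3 CPM in WT, which made it the called gene with the smallest adjusted p among those that were higher (6.69e-13 by edgeR, log2 fold change 2.63 ± 0.12). HSFA3 was at 20.2, 11.0 and 22.9 CPM in libraries labelled hd2b hd2c and 4.30, 6.27 and 4.52 CPM in WT. Both genes showed no overlap between groups, and replicate 2 of hd2b hd2c was the lowest of its group for HSFA3. AT5G03700 had a log2 fold change of 1.00 ± 0.31 (edgeR adjusted p = 0.0825), and passed without replicate 2 of hd2b hd2c (0.0374). On the other side, AT5G03750, whose products are annotated as a WD40 repeat-like protein and an E3 ubiquitin ligase, was at 3.58, 3.35 and 4.29 CPM in libraries labelled hd2b hd2c and 0.154, 0 and 0.168 CPM in WT (edgeR adjusted p = 0.000347). The next genes outwards, ATCSLA09 and KDTA, had log2 fold changes of 0.26 and 0.16 and did not pass. Without replicate 2 of hd2b hd2c ATCSLA09 passed (0.40, edgeR adjusted p = 0.035), as it did at 22 °C (0.63, 0.0085), and KDTA had -0.18 (0.845). Around HD2B, 1 of the 6 nearest tested genes passed, the F-box gene AT5G22700 with a log2 fold change of 0.68 ± 0.17 (edgeR adjusted p = 0.0356). Its groups overlapped, and that call ended without WT replicate 2 or 3 or without hd2b hd2c replicate 1 or 3, where the adjusted p reached 0.203. The gene next to HD2B, emb1211, was at 25.3, 29.6 and 30.2 CPM in libraries labelled hd2b hd2c and 38.9, 36.1 and 36.9 CPM in WT, with no overlap (log2 fold change -0.40 ± 0.12, edgeR adjusted p = 0.0801). It passed as lower without replicate 2 of hd2b hd2c (-0.42, 0.0335) and at 22 °C (-0.46, 0.0229).

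**Figure D2:**
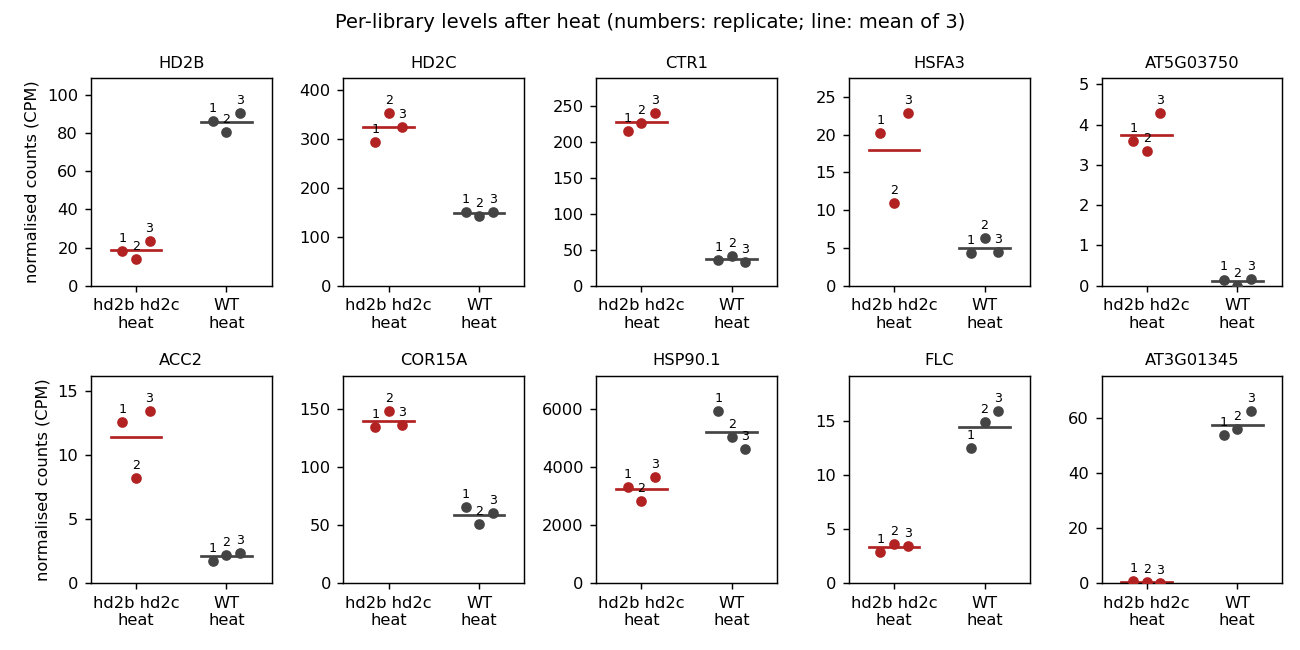
Levels in CPM of 10 genes in each heat library, with libraries labelled hd2b hd2c in red on the left of each panel and WT libraries in grey on the right. Points are libraries, numbered by replicate, and lines are means of 3. HD2B, HSP90.1, FLC and AT3G01345 are lower in libraries labelled hd2b hd2c and the other 6 genes are higher, with no overlap between groups in any panel. For ACC2 and AT3G01345 the rule by which they were named required this.

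Beyond the HD2C region, the largest rises at a mean of at least 5 CPM were spread over genes of unlike function. AT5G60250, annotated as a RING-type zinc finger protein, was at 11.0, 8.84 and 12.7 CPM in libraries labelled hd2b hd2c and 0.0768, 0.177 and 1.34 CPM in WT (log2 fold change 4.38 ± 0.47, edgeR adjusted p = 6.31e-06). ACC2, a plastid acetyl-CoA carboxylase of fatty acid synthesis, was at 12.6, 8.23 and 13.4 CPM in libraries labelled hd2b hd2c and 1.77, 2.21 and 2.35 CPM in WT (log2 fold change 2.50 ± 0.23, edgeR adjusted p = 6.94e-07). Both were also called higher at 22 °C, with log2 fold changes of 3.30 and 1.48. Isocitrate lyase, ICL, an enzyme of the glyoxylate cycle that turns stored fat into sugar in seedlings, was at 21.8, 24.1 and 8.92 CPM in libraries labelled hd2b hd2c and 3.61, 6.18 and 6.03 CPM in WT. Replicate 3 of hd2b hd2c was the lowest of its group for ICL, and the call (edgeR adjusted p = 0.00507) ended without replicate 1 of hd2b hd2c, where it was 0.0623. AT2G40010, annotated as a ribosomal protein L10 family member, rose with a log2 fold change of 1.59 ± 0.27, AT3G58270, annotated as a TRAF-like family and phospholipase-like protein, with 2.00 ± 0.35, and the suffixed pseudogene AT5G35935 with 3.09 ± 0.41. AT5G18360, annotated as a disease resistance protein of the TIR-NBS-LRR class, had a log2 fold change of 1.75 ± 0.45 (edgeR adjusted p = 0.0371). Its call ended without any 1 of the 5 heat libraries other than hd2b hd2c replicate 2, and the adjusted p then reached 0.149.

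A further 2 large rises, AT2G01023 and AT2G01008, lie beside ribosomal RNA features of chromosome 2. AT2G01023 was at 11.4, 32.3 and 19.7 CPM in libraries labelled hd2b hd2c and 0.999, 1.32 and 0.754 CPM in WT, and AT2G01008 at 19.1, 65.2 and 21.0 CPM in libraries labelled hd2b hd2c and 4.53, 6.09 and 5.44 CPM in WT. Replicate 2 of hd2b hd2c was the highest library for both. Without it their log2 fold changes were 3.93 and 1.92, against 4.30 and 2.61 with it, and both passed either way. The 18S ribosomal RNA feature AT2G01010, chosen after its values were seen, was at 20.3, 1045 and 28.5 CPM in libraries labelled hd2b hd2c and 19.7, 23.0 and 20.2 CPM in WT, and did not pass (edgeR adjusted p = 0.259). The neighbouring ribosomal RNA feature AT2G01020, chosen in the same way, was at 41.6, 326 and 52.9 CPM in libraries labelled hd2b hd2c and 10.4, 11.1 and 8.38 CPM in WT (edgeR adjusted p = 0.102). Whether ribosomal RNA reads bear on the counts of AT2G01023 and AT2G01008 was not tested.

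Among the falls, AT3G01345, which the annotation calls uncharacterized, was close to absent. It was at 0.85, 0.61 and 0.114 CPM in libraries labelled hd2b hd2c and 53.8, 55.8 and 62.6 CPM in WT, with a log2 fold change of -6.87 ± 0.27 after heat (edgeR adjusted p = 1.11e-13) and -6.74 at 22 °C. FLC, the MADS-box repressor of flowering, was at 2.85, 3.66 and 3.43 CPM in libraries labelled hd2b hd2c and 12.4, 14.8 and 15.9 CPM in WT (log2 fold change -2.16 ± 0.23, edgeR adjusted p = 7.32e-06). The groups were far apart for both genes, and FLC was also called lower at 22 °C (-1.95). AT4G11320, a papain-like cysteine protease, was at 14.2, 14.9 and 16.8 CPM in libraries labelled hd2b hd2c and 51.0, 53.2 and 55.3 CPM in WT. AT2G05510, a glycine-rich protein, was at 4.98, 10.1 and 4.69 CPM in libraries labelled hd2b hd2c and 18.1, 32.7 and 23.2 CPM in WT. The groups did not overlap for either gene, which the rule for naming the largest changes required. Replicate 2 of hd2b hd2c was the highest of its group for AT2G05510. The remaining large falls were AT5G37990 (log2 fold change -1.67, annotated as a methyltransferase), AT5G19050 (-1.45, a hydrolase), AT5G38940 (-1.44, a cupin), AT4G22490 (-1.33, a lipid transfer protein) and MLP328 (-1.42, a major latex protein-like protein). AT4G14060 (-1.70, annotated as a lipid transport family member) and AT4G03000 (-1.36, a RING/U-box protein) lost their calls with single libraries left out. The adjusted p of AT4G14060 reached 0.133 without WT replicate 2 or 3 or hd2b hd2c replicate 1, and that of AT4G03000 0.0572 without WT replicate 1 or hd2b hd2c replicate 3.

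A few transcripts, chosen after their values were seen, were counted in 1 genotype alone. NDB4, a mitochondrial NAD(P)H dehydrogenase, had 33 counts over the 3 libraries labelled hd2b hd2c and 0 over the 3 WT libraries, at least 10.7-fold higher when 3 counts over the group are taken as the limit that a count of 0 allows. AT1G27565 had 0 counts in libraries labelled hd2b hd2c and 54 in WT, at least 18.5-fold lower. The cyclopropane-fatty-acyl-phospholipid synthase gene AT3G23470 had 30 counts in libraries labelled hd2b hd2c and 0 in WT, at least 9.74-fold higher, and overlaps the gene AT3G23480. All 3 genes passed whichever heat library was left out. At 22 °C NDB4 and AT1G27565 were called in the same directions, and AT3G23470 was not called (log2 fold change 0.17). Floors and intervals cover counting error only.

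Some genes of the larger chaperones were lower in heated seedlings labelled hd2b hd2c. Of 26 tested HSP70, HSP90, HSP100 and co-chaperone genes, 4 fell and none rose, beside 1.18% and 1.59% of all tested genes. HSP90.1, the heat-induced cytosolic HSP90, was at 3312, 2825 and 3652 CPM in libraries labelled hd2b hd2c and 5947, 5028 and 4632 CPM in WT (log2 fold change -0.67 ± 0.17, edgeR adjusted p = 0.0303). The co-chaperone BAG6 was at 1080, 1204 and 1266 CPM in libraries labelled hd2b hd2c and 2668, 2187 and 1728 CPM in WT (log2 fold change -0.89 ± 0.20, edgeR adjusted p = 0.0177). WT replicate 1 was the highest library for both, and the groups did not overlap. Hsp70b had a log2 fold change of -0.62 ± 0.15 and Hop2, which links HSP70 to HSP90, -0.62 ± 0.16. HSP101, the disaggregase needed for thermotolerance, was at 8969, 8297 and 9620 CPM in libraries labelled hd2b hd2c and 9941, 10357 and 10213 CPM in WT, and did not pass (edgeR adjusted p = 0.661). The median log2 fold change of the 26 was -0.24, and their summed level was 50926, 50840 and 56470 CPM in libraries labelled hd2b hd2c and 67503, 64316 and 64055 CPM in WT. The sums did not overlap. All 4 calls ended without WT replicate 1, without WT replicate 2 or without hd2b hd2c replicate 1, where the adjusted p reached 0.169, and that of Hsp70b also without WT replicate 3. Without replicate 2 of hd2b hd2c the 4 calls held and 1 gene was called higher, CLPB4 (log2 fold change 0.45, edgeR adjusted p = 0.00889), a mitochondrial HSP100 chosen after its values were seen. In that fit 3.41% of all tested genes were lower and 3.55% higher. DESeq2 called 8 lower. None of the 4 calls held in a fit of the heat libraries alone (edgeR adjusted p 0.0635 to 0.195). With scaling by library totals none held either (0.188 to 0.565). A replicate block ended the calls of HSP90.1 and Hsp70b (0.074 for each) and kept those of BAG6 and Hop2. At 22 °C, 6 of the 26 were called lower, beside 1.67% of all tested genes.

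Few genes of the small heat shock proteins and of the heat stress factors passed. Over all tested genes 1.59% were higher and 1.18% lower, and without replicate 2 of hd2b hd2c 3.55% and 3.41%. Of 17 tested small heat shock protein genes, 1 fell, AT4G21870, at 24.7, 31.7 and 24.6 CPM in libraries labelled hd2b hd2c and 41.5, 43.4 and 52.5 CPM in WT (edgeR adjusted p = 0.00299), and without replicate 2 of hd2b hd2c 2 did. The median log2 fold change of the 17 was -0.15, and their summed level was 22946, 24960 and 27661 CPM in libraries labelled hd2b hd2c and 27221, 26654 and 28871 CPM in WT, which overlapped. Of 21 tested heat stress transcription factor genes, HSFA3 rose and none fell. HSFA2, a factor that extends the heat response, was at 2302, 1439 and 2592 CPM in libraries labelled hd2b hd2c and 2321, 2235 and 2323 CPM in WT, where replicate 2 of hd2b hd2c lay below all others and the groups overlapped. Without that replicate AT-HSFA7B (log2 fold change 0.41, edgeR adjusted p = 0.0269) and DREB2C (1.02, 0.043) were called higher too, both chosen after their values were seen. The median of the 21 was -0.01, and it turned to 0.06 with scaling by library totals and to 0.10 without that replicate. APX2, a cytosolic ascorbate peroxidase induced by heat, was at 184, 207 and 194 CPM in libraries labelled hd2b hd2c and 113, 93.0 and 119 CPM in WT (log2 fold change 0.84 ± 0.14, edgeR adjusted p = 0.00171), the only 1 of 13 oxidative stress and galactinol synthesis genes that passed. The median of those 13 was -0.05, and 0.04 with library totals, and without replicate 2 of hd2b hd2c 2 were higher and 1 lower.

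**Figure D3:**
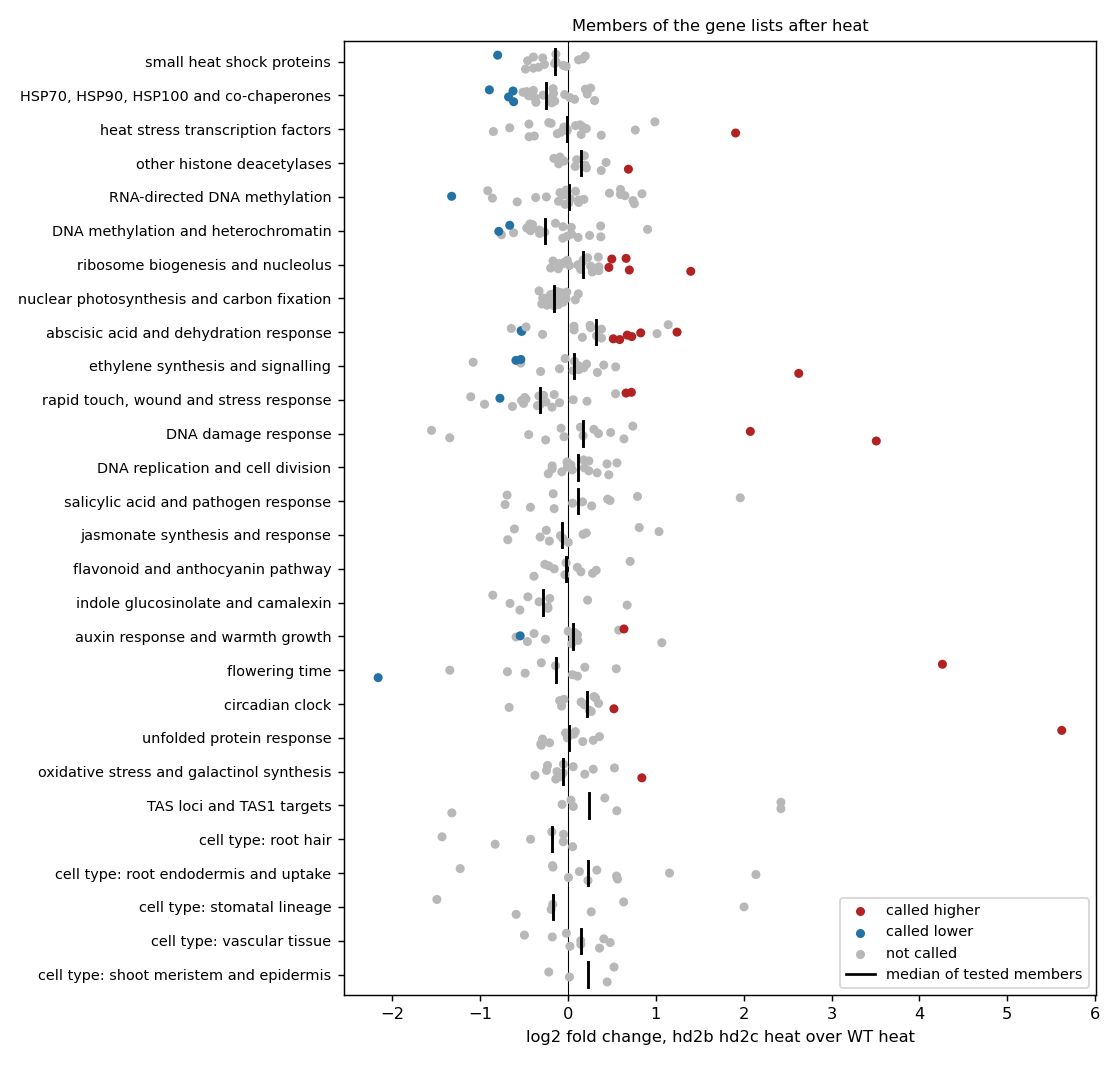
Log2 fold changes, libraries labelled hd2b hd2c over WT after heat, for every tested member of 28 gene lists. Each point is a gene, red if called higher, blue if called lower and grey otherwise, and the black bar is the median of the tested members. Calls gather in the abscisic acid list (6 higher, 2 lower), the nucleolus list (5 higher) and the HSP70, HSP90 and HSP100 list (4 lower). The fitted values of NAC103 and CO at the far right come from 1 count each in WT.

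The list of the abscisic acid (ABA) and dehydration response held 8 calls, the most of the 28 lists with all libraries included; without replicate 2 of hd2b hd2c the photosynthesis list held more, 16, against 8. Of 21 tested genes, 6 rose and 2 fell, beside 1.59% and 1.18% of all tested genes, and the median log2 fold change was 0.33. With a trend in exonic length taken out 4 were higher and 1 lower, beside 1.38% and 1.33% of all tested genes. COR15A, a cold-induced protein that protects chloroplast membranes, was at 134, 148 and 136 CPM in libraries labelled hd2b hd2c and 65.5, 50.8 and 60.1 CPM in WT (log2 fold change 1.24 ± 0.17, edgeR adjusted p = 0.000257). PP2CA, a phosphatase that restrains ABA signalling, was at 144, 135 and 123 CPM in libraries labelled hd2b hd2c and 84.1, 74.4 and 93.2 CPM in WT (log2 fold change 0.68 ± 0.13, edgeR adjusted p = 0.00444). Neither gene showed overlap between groups, and both passed with any heat library left out. The related phosphatases ABI1 (0.52) and HAI1 (0.73), the dehydrin RAB18 (AT5G66400, 0.83) and NCED3 (0.59), which makes an ABA precursor, rose as well. The dehydrins COR47 (-0.52) and ERD10 (-0.53) fell. Of the genes of the list that did not pass, LTI78 was at 117, 80.8 and 156 CPM in libraries labelled hd2b hd2c and 169, 150.4 and 116 CPM in WT, which overlapped. The calls of ABI1, RAB18 and NCED3 ended without WT replicate 1, without WT replicate 2 or without hd2b hd2c replicate 1, where the adjusted p reached 0.158. HAI1, COR47, ERD10 and RD20 were named after their values were seen. Without replicate 2 of hd2b hd2c HAI1 lost its call (0.0583), while RD20 gained one (0.0173). P5CS1, a proline synthesis enzyme chosen after its values were seen, was at 224, 181 and 199.5 CPM in libraries labelled hd2b hd2c and 126, 107 and 122 CPM in WT (log2 fold change 0.77 ± 0.13, edgeR adjusted p = 0.00145). At 22 °C 8 genes of the list were called higher and none lower, beside 0.979% and 1.67% of all tested genes.

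In the ethylene list, of 17 tested genes, CTR1 rose and 2 fell, beside 1.59% and 1.18% of all tested genes. EFE, an enzyme of the last step of ethylene synthesis, was one of those that fell, at 377, 339.9 and 441 CPM in libraries labelled hd2b hd2c and 558, 579.9 and 539.5 CPM in WT (log2 fold change -0.53 ± 0.12, edgeR adjusted p = 0.0199). The groups did not overlap for EFE, and its call ended without WT replicate 1, WT replicate 2 or hd2b hd2c replicate 1, where the adjusted p reached 0.099. The receptor gene ETR1 (0.13) and the transcription factor gene EIN3 (-0.31) did not pass.

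Among 21 tested genes of the rapid touch, wound and stress response, 2 rose and 1 fell, beside 1.59% and 1.18% of all tested genes. Without replicate 2 of hd2b hd2c 2 were higher and 3 lower, beside 3.55% and 3.41% of all genes tested there. The cold response factors DREB1A and CBF2 had log2 fold changes of 0.72 ± 0.14 and 0.66 ± 0.15 (edgeR adjusted p = 0.00507 and 0.0161). The ethylene response factor gene ERF6 was at 21.4, 41.1 and 24.6 CPM in libraries labelled hd2b hd2c and 43.2, 46.4 and 51.5 CPM in WT (log2 fold change -0.77 ± 0.21, edgeR adjusted p = 0.0484). The call of CBF2 ended without WT replicate 1 or 2 or hd2b hd2c replicate 1, and that of ERF6 without any 1 of the 5 heat libraries other than hd2b hd2c replicate 2, with adjusted p up to 0.265. At 22 °C the same list held 11 genes called higher and none lower, beside 0.979% and 1.67% of all tested genes. For 5 of the 21 genes the difference between the temperatures passed, each with a lower genotype effect after heat, beside 0.188% of all tested genes.

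Genes of the nucleolus and of ribosome assembly were higher where they moved. Of 24 tested genes 5 rose and none fell, beside 1.59% and 1.18% of all tested genes, with a median log2 fold change of 0.17. In the fit without replicate 2 of hd2b hd2c 7 were higher, beside 3.55% of all genes tested there. With a trend in exonic length taken out 4 were higher, beside 1.38% of all tested genes, and 4 without that replicate as well. FIB2, a fibrillarin that methylates ribosomal RNA, was at 97.3, 127 and 97.2 CPM in libraries labelled hd2b hd2c and 60.3, 62.2 and 73.9 CPM in WT (log2 fold change 0.70 ± 0.12, edgeR adjusted p = 0.00253). NUC-L2, a nucleolin, was at 4.25, 5.18 and 4.34 CPM in libraries labelled hd2b hd2c and 1.07, 2.30 and 1.76 CPM in WT (log2 fold change 1.40 ± 0.32, edgeR adjusted p = 0.0199). Neither showed overlap between the groups, and FIB2 was highest in replicate 2 of hd2b hd2c, the library with the largest share of ribosomal RNA; the part of that share in the result was not tested. The other 3 were NAC082 (0.50), a factor of the nucleolar stress response, the pescadillo-like gene AT5G14520 (0.47) and the midasin-like gene AT1G67120 (0.66). FIB2 passed with any heat library left out. NUC-L2 did not pass without WT replicate 1 or hd2b hd2c replicate 1, nor NAC082, AT5G14520 and AT1G67120 without several single libraries, hd2b hd2c replicates 1 and 3 among them, with adjusted p up to 0.23. The summed level of the list was 1357, 1426 and 1367 CPM in libraries labelled hd2b hd2c and 1098, 1136 and 1181 CPM in WT, with no overlap. The 3 small nucleolar RNA features AT4G39361, AT4G39363 and AT4G39364, of 27 tested, were called higher, beside 1.59% of all tested genes. They had log2 fold changes of 0.61, 0.50 and 0.55, and were chosen after their values were seen. Their loci lie close together in the numbering, so the calls may not be independent.

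In each of 3 lists of chromatin genes 1 or 2 genes passed, beside 1.59% higher and 1.18% lower of all tested genes. Of 12 other histone deacetylase genes tested, 1 rose, the fourth HD2 gene HDT4, at 41.6, 70.1 and 50.1 CPM in libraries labelled hd2b hd2c and 33.3, 31.6 and 32.7 CPM in WT (log2 fold change 0.69 ± 0.14, edgeR adjusted p = 0.0112). Replicate 2 of hd2b hd2c was the highest, and the call ended without WT replicate 2 (0.0561). HDA6 was at 20.1, 25.6 and 20.6 CPM in libraries labelled hd2b hd2c and 19.6, 18.4 and 18.0 CPM in WT and did not pass. Of 25 tested genes of RNA-directed DNA methylation, 1 fell, IDN2, at 0.729, 0.914 and 1.09 CPM in libraries labelled hd2b hd2c and 2.54, 2.47 and 1.84 CPM in WT (edgeR adjusted p = 0.0232). AGO4, the Argonaute protein of that pathway, was at 153, 226 and 144 CPM in libraries labelled hd2b hd2c and 160.3, 178 and 191 CPM in WT, with overlapping groups (log2 fold change -0.03 ± 0.15, edgeR adjusted p = 0.95). Of 23 tested genes of DNA methylation maintenance, demethylation and heterochromatin 2 fell, and the median log2 fold change was -0.26. These were HTA6, a histone H2A of heterochromatin (-0.66 ± 0.14, edgeR adjusted p = 0.0128), and DML1, a DNA demethylase (-0.78 ± 0.21, edgeR adjusted p = 0.0496). The calls of IDN2 and DML1 ended without WT replicate 1, WT replicate 2 or hd2b hd2c replicate 1, and that of HTA6 without hd2b hd2c replicate 1, with adjusted p up to 0.202. Leaving out replicate 2 of hd2b hd2c, 2 histone deacetylase genes were higher, and 2 genes of RNA-directed DNA methylation and 4 of DNA methylation and heterochromatin were lower, beside 3.55% and 3.41% of all genes tested there.

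Among pseudogene and transposable element loci most calls after heat were upwards. Of 143 tested loci with a numbered suffix, 7 were called higher and 1 lower, beside 1.59% and 1.18% of all tested genes, with a median log2 fold change of 0.23 over the 143. Of 156 tested without replicate 2 of hd2b hd2c 10 were higher and 2 lower, beside 3.55% and 3.41% of all genes tested there. With a trend in exonic length taken out 5 of 143 were higher and 2 lower, beside 1.38% and 1.33% of all tested genes. Their summed level was 847, 903 and 839.6 CPM in libraries labelled hd2b hd2c and 666, 693 and 683 CPM in WT, with no overlap. The SADHU3-2 element, a retroposon, was at 4.74, 5.79 and 3.72 CPM in libraries labelled hd2b hd2c and 0.615, 1.94 and 2.09 CPM in WT (edgeR adjusted p = 0.0202). AT3G42806 was at 21.2, 40.2 and 21.0 CPM in libraries labelled hd2b hd2c and 12.4, 9.45 and 10.2 CPM in WT (edgeR adjusted p = 0.00256). Both were chosen after their values were seen, and both had groups that did not overlap. Reads of repeated loci may be shared between copies, and how such reads were counted is not given in the sources used here.

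Photosynthesis genes depended on replicate 2. None of 26 tested nuclear genes of photosynthesis and carbon fixation passed with all libraries, at a median log2 fold change of -0.16. Without replicate 2 of hd2b hd2c 16 of the 26 were called lower and none higher, beside 3.41% and 3.55% of all genes tested there, and the median was -0.50. The summed level of the list was 329633, 646232 and 269031 CPM in libraries labelled hd2b hd2c and 395111, 439769 and 541519 CPM in WT. Replicate 2 of hd2b hd2c thus lay above every other heat library, and replicates 1 and 3 below every one in WT. The light-harvesting gene CAB1, which like RBCS1A was chosen after its values were seen, was at 74727, 167138 and 58922 CPM in libraries labelled hd2b hd2c and 94024, 105735 and 140276 CPM in WT (log2 fold change -0.75 without replicate 2, edgeR adjusted p = 0.0209, and -0.18 with it, 0.83). RBCS1A, a small subunit of Rubisco, was at 14855, 35721 and 14044 CPM in libraries labelled hd2b hd2c and 22668, 22591 and 28536 CPM in WT (log2 fold change -0.76 without replicate 2, edgeR adjusted p = 0.00363). Replicate 2 also held the smallest total count and the largest share of ribosomal RNA, and the part of either in these values was not tested.

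In the DNA damage list, 2 of 15 tested genes rose and none fell, beside 1.59% and 1.18% of all tested genes. Without replicate 2 of hd2b hd2c 4 of 16 were higher, beside 3.55% of all genes tested there. NAC044, a factor that halts the cell cycle after DNA damage, was at 4.92, 4.88 and 5.20 CPM in libraries labelled hd2b hd2c and 0.999, 0 and 0.251 CPM in WT (log2 fold change 3.51 ± 0.50, edgeR adjusted p = 0.000297). GMI1, a DNA repair gene induced by irradiation, was at 9.41, 5.79 and 6.92 CPM in libraries labelled hd2b hd2c and 2.23, 1.15 and 2.01 CPM in WT (log2 fold change 2.08 ± 0.32, edgeR adjusted p = 0.00083). Both held with any heat library left out and were also called higher at 22 °C (4.17 and 2.03). SOG1, a regulator of the DNA damage response (-0.25), did not pass. None of the 16 tested genes of DNA replication and cell division passed, with log2 fold changes between -0.22 and 0.56. Without replicate 2 of hd2b hd2c 1 was higher, CYCD3;1 (0.62, edgeR adjusted p = 0.0197), chosen after its values were seen.

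In the remaining lists few genes passed or none. The shares of all tested genes were 1.59% higher and 1.18% lower, and 3.55% and 3.41% without replicate 2 of hd2b hd2c. CO, which promotes flowering in long days, had 24 counts over libraries labelled hd2b hd2c and 1 over WT, a ratio of 23.4 (exact 95% interval 3.81 to 962), and its call (edgeR adjusted p = 0.0245) ended without WT replicate 1 or 2 or hd2b hd2c replicate 3, where it reached 0.124. NAC103, a factor of the unfolded protein response, had 63 counts in libraries labelled hd2b hd2c and 1 in WT, a ratio of 61.4 (exact 95% interval 10.6 to 2460; edgeR adjusted p = 0.000386). The other 12 unfolded protein response genes tested did not pass, with log2 fold changes between -0.31 and 0.36. TOC1 of the circadian clock (0.53 ± 0.13, edgeR adjusted p = 0.0249) and HFR1 of light and warmth growth (0.64 ± 0.16, 0.0303) rose, and the auxin response gene IAA2 (-0.54 ± 0.13, 0.0277) fell. These 3 calls ended without WT replicate 2 or hd2b hd2c replicate 1, among other libraries, with adjusted p up to 0.174. The auxin and warmth growth list held, without replicate 2 of hd2b hd2c, 3 higher and 2 lower genes of 14, against 1 and 1 with it. No tested gene passed in the lists of salicylic acid (12 tested), jasmonate (12), flavonoid (11), indole glucosinolate (10) or TAS loci (8). In the fit without replicate 2 of hd2b hd2c 1 gene each was lower in the salicylic acid, jasmonate and flavonoid lists and 2 in the indole glucosinolate list. Among them was TT4, the chalcone synthase of flavonoid synthesis (-0.74, edgeR adjusted p = 0.000491), chosen after its values were seen. The flavonoid median, -0.02, was 0.21 with library totals.

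With all libraries no marker of a cell type passed, among 7 of root hairs, 11 of the endodermis and uptake, 7 of the stomatal lineage, 9 of vascular tissue and 4 of the shoot meristem and epidermis. The summed level of the vascular markers was 298, 373 and 271 CPM in libraries labelled hd2b hd2c and 264, 278 and 292 CPM in WT, and that of the root hair markers 2.31, 3.66 and 1.54 CPM in libraries labelled hd2b hd2c and 0.845, 4.06 and 3.60 CPM in WT. Both sets of sums overlapped between groups. The root hair median was -0.18, and 0.03 with library totals. A single endodermis and uptake marker was lower without replicate 2 of hd2b hd2c, the nitrate transporter gene NRT2:1 (-1.35, edgeR adjusted p = 0.0411), named after its values were seen. The median of that list was -0.06 without that replicate, against 0.23 with it. None of the 4 seed storage genes had enough counts to be tested with all libraries.

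Part of the differences were also called without heat. Of the 559 genes, 464 had the same sign at 22 °C, and 126 were also called there. The share of all tested genes with the same sign is not given here, so the 464 have no such share beside them. Those 126 made up 22.5% of the genes called after heat and 23.5% of the 536 called at 22 °C (2.65% of those tested), and 124 of them went the same way, 60 higher and 64 lower. Across the 559 genes, which are not independent, Pearson's r between the log2 fold changes at the 2 temperatures was 0.668; the libraries of the temperatures differ but share a single fit. The genotype difference itself differed between the temperatures for 68 genes (0.336%), of which 26 were among the 559. CTR1 led these, with an interaction log2 of 2.43 (edgeR adjusted p = 4.17e-09). It averaged 227 ± 12.7 CPM in libraries labelled hd2b hd2c after heat and 36.8 ± 3.82 in WT after heat, against 46.1 ± 2.23 in libraries labelled hd2b hd2c and 40.3 ± 3.07 in WT at 22 °C (SD, n = 3 each). CBF2 was higher in libraries labelled hd2b hd2c at both temperatures, by 0.66 after heat and 2.31 at 22 °C on the log2 scale (interaction -1.65, edgeR adjusted p = 0.00252). ERF6 was lower after heat (-0.77) and higher at 22 °C (1.59; interaction -2.36, edgeR adjusted p = 0.000603). ER (AT2G26330), the ERECTA receptor kinase of organ growth, was chosen after its values were seen. It stood at 63.4, 55.2 and 60.1 CPM in libraries labelled hd2b hd2c and 34.1, 33.9 and 35.9 CPM in WT after heat (log2 fold change 0.79 ± 0.11), against 0.03 at 22 °C (interaction edgeR adjusted p = 0.024).

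**Figure D4:**
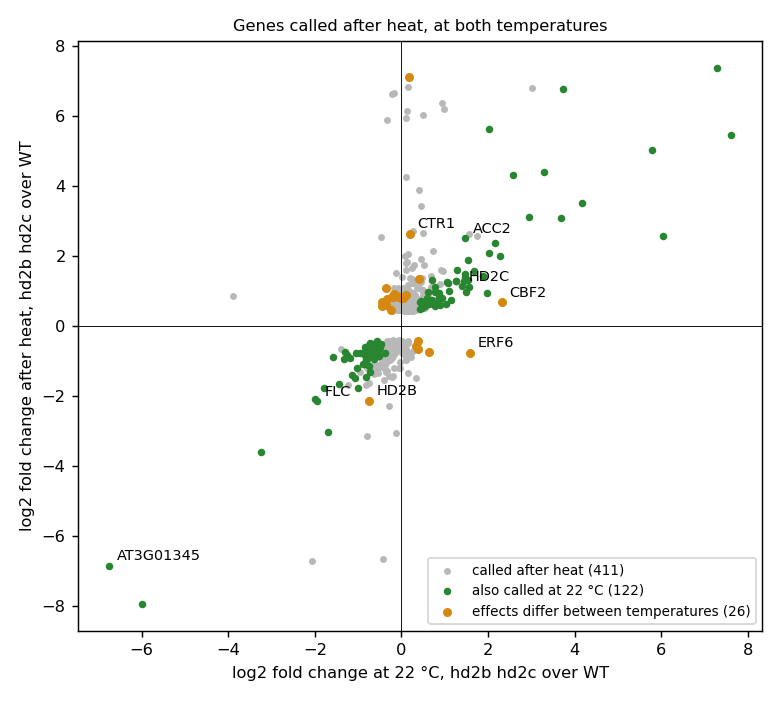
The 559 genes called after heat, placed by their log2 fold change at 22 °C (horizontal axis) and after heat (vertical axis), libraries labelled hd2b hd2c over WT. Orange points are the 26 genes whose genotype effect differed between the temperatures, and green points are the other 122 that were also called at 22 °C. Most points lie in the upper right and lower left, where the signs are the same, and ERF6 lies at the lower right. Points beyond about 5 on either axis come from genes with few counts in 1 group, other than AT3G01345.

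Long genes were called higher more often than short ones, a pattern noticed after the values were seen. Genes with more than 6000 bases of annotated exon were called higher in 37 of 153 cases (24.2%) and lower in 1. In genes of 4000 to 6000 bases 5.20% were called higher, in genes up to 1000 bases 0.878%. The median exonic length was 2413 bases for genes called higher, 1591 for genes called lower and 1771 for all tested. Members of the longest class included the HECT ubiquitin ligase genes UPL1 (0.63) and UPL2 (0.57), AT2G17930 (0.83), AT5G23110 (0.75), AT5G24740 (0.83), SWEETIE (0.60) and AT1G67120 (0.66). UPL2 was at 66.2, 72.5 and 78.7 CPM in libraries labelled hd2b hd2c and 54.7, 44.7 and 46.8 CPM in WT. AT2G17930, annotated as a kinase family member with a FAT domain, was at 42.1, 64.0 and 48.5 CPM in libraries labelled hd2b hd2c and 28.6, 27.4 and 29.2 CPM in WT. The groups did not overlap for either gene. Of these calls, that of UPL1 ended without WT replicate 3 (0.0548), that of UPL2 without WT replicate 2 or hd2b hd2c replicate 3 (0.0759), and that of SWEETIE without any 1 heat library other than hd2b hd2c replicate 2 (0.237). These genes, apart from AT1G67120, were chosen after their values were seen, and UPL1 overlaps another gene.

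Library by library, the median deviation of genes over 6000 bases from the mean of the 6 heat libraries was 0.16, -0.0066 and 0.29 on the log2 scale in hd2b hd2c replicates 1 to 3, and 0.0032, -0.13 and -0.25 in WT replicates 1 to 3. Replicate 2 of hd2b hd2c and replicate 1 of WT thus overlapped. At 22 °C the order was the opposite, with a median log2 fold change of -0.21 for this class, against 0.31 after heat. When a smooth trend with exonic length was taken out of every library, an alternative chosen after seeing the data, 550 genes (2.72%) were called, 280 higher (1.38%) and 270 lower (1.33%). Of the 559, 456 were among them, and 9 genes over 6000 bases were higher and 5 lower. UPL1 (0.31, edgeR adjusted p = 0.216), UPL2 (0.23, 0.289), AT5G23110 (0.34, 0.261), AT5G24740 (0.49, 0.0779), AT2G17930 (0.48, 0.0969), SWEETIE (0.38, 0.153) and AT1G67120 (0.22, 0.473) then lost their calls. ER (0.71, edgeR adjusted p = 0.00122), AT5G25560 (0.76, 0.000271) and AT3G08960 (0.80, 0.000231) kept theirs, and the last 2, a RING-type zinc finger and an ARM repeat gene, were chosen after their values were seen. The part of RNA quality or library preparation in the length trend was not tested.

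**Figure D5:**
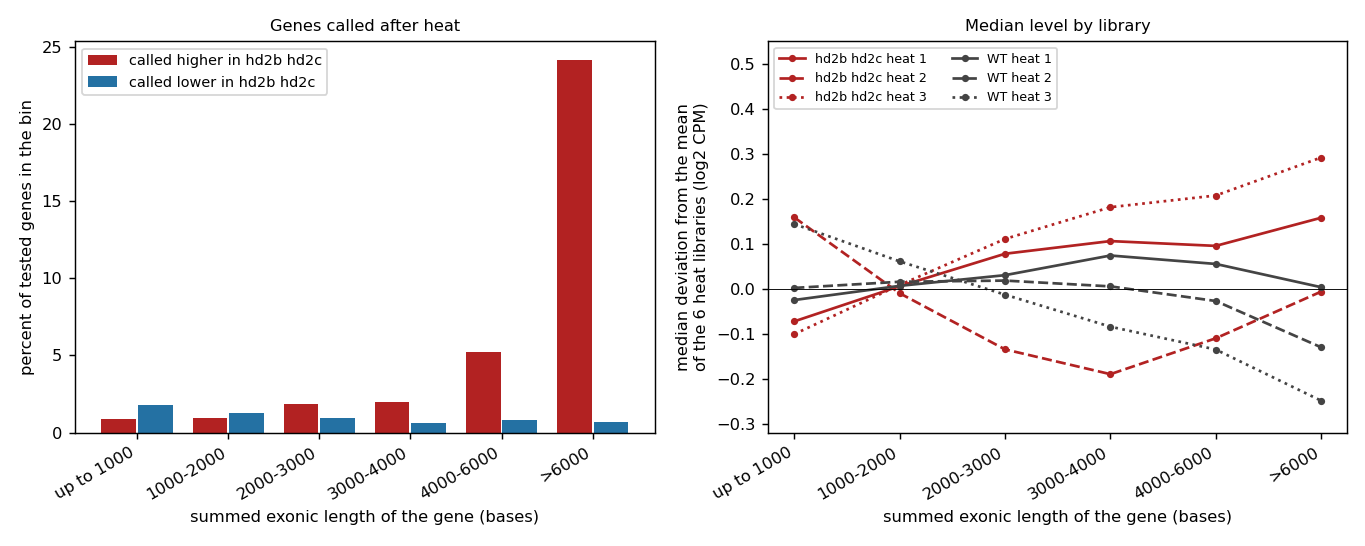
Left, percent of tested genes called higher (red) and lower (blue) in libraries labelled hd2b hd2c after heat, by summed exonic length in bases; the share called higher reaches 24.2% over 6000 bases. Right, median deviation of the genes of each length class from the mean of the 6 heat libraries (log2 CPM), 1 line per library, with libraries labelled hd2b hd2c in red and WT in grey. Replicates 1 and 3 of hd2b hd2c climb with length, WT replicate 3 descends, and replicate 2 of hd2b hd2c dips in the middle classes.

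The called genes were spread over the genome. Between 2.61% and 3.08% of tested genes were called on each of the 5 chromosomes. In windows of 40 neighbouring tested genes the largest count was 8, between AT2G36670 and AT2G37120 on chromosome 2, with 2 higher and 6 lower. The genes of that stretch given here were chosen after their values were seen. The lower ones included the glucosyltransferase genes DOGT1 (log2 fold change -0.78 ± 0.21, edgeR adjusted p = 0.0484, and 0.0607 without replicate 2 of hd2b hd2c) and AT2G36970 (-1.22 ± 0.32, 0.0372). The higher ones were AT2G36810 (0.78) and the callose synthase gene GSL8 (0.60). The window that holds HD2C, from AT5G03680 to AT5G04140, had 5 called genes and all 5 were higher.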

How the data were processed

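The authors' deposited table holds raw read counts per gene, not normalised, in 12 columns, 1 for each library. The submitters' processing notes name HISAT2 2.1.0, featureCounts 2.0.3 and the TAIR10 build. The sources used here give neither the strand setting nor how reads that align to several places were counted. Of 33330 features, 32842 matched the TAIR10.1 reference annotation, which gave names, exonic lengths and the gene positions behind gene order and overlaps.

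Counts were tested with edgeR 4.0.16 in R 4.3.3 (limma 3.58.1), by the robust quasi-likelihood test, two-sided, in 1 fit of all 12 libraries and 4 groups with TMM factors. Genes were kept by filterByExpr (minimum count 10, minimum total 15). Benjamini-Hochberg adjustment ran over the 20232 tested genes, with a threshold of 0.05. The SE is the absolute log2 fold change over the square root of F. The script was tested on simulated counts. Total counts of 7737285 to 24030931 per heat library set the precision. The members and lists were chosen with earlier results of these data known. Named genes were HD2B and HD2C, the 12 genes called with the largest change each way (mean of 5 CPM or more in either heat group, no overlap of groups), up to 5 called members of each list by adjusted p, and the 3 nearest tested genes on each side of HD2B and HD2C. Genes outside this rule are marked as such where they first appear, except list members given as not passing. Some genes are not reported here. Alternatives were other scaling, filters, DESeq2 1.42.0, the heat libraries alone, a replicate block, each library left out and a length trend taken out by loess (span 0.4). All 33330 features entered the library totals, including 4 of ribosomal RNA. No library was a duplicate of another.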

Additional observations from a re-analysis of the deposited data

Results flagged for a closer look

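For 15 genes named above, the genotype difference after heat was not that at 22 °C by edgeR's test of the interaction, and this is what marks them here. Given as the log2 effect after heat minus that at 22 °C, with the edgeR adjusted p, the values were -1.40 for HD2B (0.000928), 2.43 for CTR1 (4.17e-09), 1.11 for AT1G67120 (0.0406), -1.65 for CBF2 (0.00252), -2.36 for ERF6 (0.000603), 1.02 for UPL2 (0.00443) and 0.998 for UPL1 (0.012). They were 1.08 for AT5G23110 (0.00936), 1.01 for AT5G24740 (0.028), 0.887 for AT2G17930 (0.0426), 0.949 for SWEETIE (0.0493), 0.764 for ER (0.024), 0.789 for AT5G25560 (0.0171) and 0.776 for AT3G08960 (0.0426). For AT3G23470 the fitted value, 6.93 (0.0149), rests on 0 counts in WT after heat and is no measure of size. Of these genes HD2B, CBF2 and ERF6 had the lower effect after heat, and the other 12 the higher. All of those 12 except CTR1 and AT1G67120 were chosen after their values were seen, so this split follows from the choosing. Over all tested genes the interaction was higher for 30 (0.148%) and lower for 38 (0.188%). With the length trend taken out these counts were 8 and 40.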

How the results depend on the processing

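The counts of genes that passed after heat, 321 higher and 238 lower, moved with the setting. They were 539 and 446 with DESeq2, 45 and 34 with the 6 heat libraries alone, and 39 and 14 with library totals. Without a filter 392 genes were lower, with the heat libraries alone and without replicate 2 of hd2b hd2c 627, and with the length trend taken out and without that replicate 675. Leaving out 1 library at a time gave 99 to 732 higher and 53 to 703 lower. At 22 °C, 198 higher and 338 lower genes became 74 and 28 with library totals, 521 lower with DESeq2, 301 higher without a filter, and 483 and 558 with the length trend and replicate 2 of hd2b hd2c after heat taken out. Leave-one-out ranges there were 101 to 408 higher and 106 to 653 lower. The interaction's 30 higher and 38 lower became 126 and 81 with DESeq2, 2 and 8 with library totals, 93 and 87 without a filter, 8 higher with the length trend taken out, and 46 and 97 without replicate 2 of hd2b hd2c as well, with leave-one-out ranges of 5 to 172 and 11 to 167. The cause was not tested.

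Deviations of same-numbered heat libraries correlated between -0.132 and 0.0465, and those of differently numbered ones between -0.105 and 0.123. The labels do not say whether same-numbered samples were grown or prepared together, and 3 libraries per group cannot settle it. With the replicate block 201 genes were higher and 139 lower after heat, and 15 higher in the interaction. Without replicate 2 of hd2b hd2c, the difference in ribosomal RNA share was -0.554 percentage points (2.91 with it), and that of the 10 most abundant genes -5.49 (0.106 with it) (exact permutation p = 0.1 without it, the smallest that 2 against 3 allow, and p = 1 with it). Of the named genes that passed, none reversed in any setting where it was tested. Named genes that did not pass could change sign, as KDTA did (log2 fold change 0.16, and -0.18 without replicate 2 of hd2b hd2c). Of 68 named genes that passed, 37 passed with each heat library left out, all 68 with DESeq2, 35 with the heat libraries alone and 28 with library totals. Low counts limit genes under about 1 CPM.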
